A study of Rattus norvegicus with 12 samples.

Results

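Protein kinase A (PKA) is built from regulatory and catalytic subunits, and the transcripts of its 6 subunit genes were followed in the ganglionic eminences of rat embryos. They are the regulatory subunit genes Prkar1a, Prkar1b, Prkar2a and Prkar2b and the catalytic subunit genes Prkaca and Prkacb. Members were the probe sets of an Affymetrix rat Gene 1.0 ST array whose annotation gave exactly 1 gene symbol, equal to one of these names. This found 7 probe sets of 29214 and all 6 genes of 14506, and where a gene had several probe sets that with the highest mean stood for it. The set was chosen by the measured fall of Prkar2b between wild-type and homozygous embryos in these same arrays, so the differences between genotypes below describe these embryos and are not tests of the choice.

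RNA came from whole ganglionic eminences, medial and lateral together, at embryonic day 14, with 1 array per embryo. A group of 6 embryos was BACHD+/+, homozygous for full-length human huntingtin carrying 96 CAG repeats, and a group of 6 was wild type. Both groups came from the litters of 3 transgenic mothers, all dissected on a single day, so the wild-type embryos too had developed in transgenic mothers. The dam and sex of each embryo, the promoter of the transgene and the rat strain were not given by the sources at hand, and separate embryos were the replicates.

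As background, the PKA holoenzyme holds a pair of regulatory and a pair of catalytic subunits and is inactive until cyclic AMP (cAMP) binds the regulatory subunits and frees the catalytic ones. The type I regulatory subunits are mostly cytosolic, while the type II subunits bind strongly to A-kinase anchoring proteins, which place the kinase at membranes, centrosomes and dendrites. The beta isoform of the type II subunit, encoded by Prkar2b, is known as the main type II form of brain, and PKA in striatal neurons relays dopamine and adenosine signals and phosphorylates CREB. In the embryo PKA also restrains Hedgehog signalling.

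Sequences from before the annotated starts of Prkar2b, Prkar1a and Prkaca are given, each with a single kind of motif in capitals. They are from RefSeq (rat assembly GRCr8), which supplied windows for 5 of the 6 genes. For Prkar2b a short stretch that begins 250 bases before the start is given, chr6:54381632-54381661, minus strand, with capitals marking the GC box GGGCGG. Most of the Prkar2b window lies inside the outermost RefSeq bounds of that gene, so it need not all precede transcription. For Prkar1a, which with Prkar2b had groups that did not overlap, the 250 bases are chr10:95120287-95120536, plus strand, with capitals marking the E box CACGTG. For Prkaca, whose groups were nearly equal, they are chr19:41083190-41083439, minus strand, with capitals marking CGTCA, the reverse strand form of TGACG, the core of the cAMP response element (CRE) to which CREB binds.
Prkar2b: gggcgccGGGCGGgggggGGGCGGtgcagc
Prkar1a: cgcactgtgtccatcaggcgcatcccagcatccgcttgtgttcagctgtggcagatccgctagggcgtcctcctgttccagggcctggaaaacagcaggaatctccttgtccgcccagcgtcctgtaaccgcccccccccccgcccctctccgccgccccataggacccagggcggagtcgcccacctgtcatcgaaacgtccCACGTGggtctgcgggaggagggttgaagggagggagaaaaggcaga
Prkaca: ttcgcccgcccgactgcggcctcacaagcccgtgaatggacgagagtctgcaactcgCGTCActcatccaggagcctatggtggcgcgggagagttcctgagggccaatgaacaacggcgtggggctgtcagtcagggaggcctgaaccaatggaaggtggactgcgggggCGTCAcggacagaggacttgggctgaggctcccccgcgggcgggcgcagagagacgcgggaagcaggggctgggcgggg

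Over the 250 bases before the start, Prkar2b had a GC content of 80.8%, Prkacb of 68.0%, Prkaca of 67.6% and Prkar1a of 65.2%, where the median of all 33469 windows was 51.2%. Prkar1b has 2 annotated windows, at 74.0% and 48%. A GC box (GGGCGG or CCGCCC, so either strand) occurred 3 times in the Prkar2b window, 5 times in Prkar1a, 3 times in Prkaca, 2 times in Prkacb and 2 times in the first window of Prkar1b but not in its other window. It was found in 30.5% of all windows. The CRE core (TGACG or CGTCA) was found 2 times in Prkaca and not in the windows of Prkar1a, Prkar1b, Prkar2b and Prkacb, and 18.2% of all windows held it. No window of the 5 genes held the full CRE TGACGTCA, which 1.59% of all windows held, and Prkar1a alone of the 5 held CACGTG, found in 5.59%. These matches describe letters in these windows and no binding was measured. Their relation to the differences between genotypes was not tested.

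The deposited values were log2 intensities, with array medians of 7.67 to 7.71 for the wild-type arrays and 7.69 to 7.76 for the homozygous arrays. All 7 probe sets lay above 9.74, the highest upper quartile of any array, in every embryo, so none was near the dim end. Wild type 2 and wild type 1 lay farthest from their group's mean over all probe sets (root mean square 0.157 and 0.138 on the log2 scale, where the other 10 arrays had 0.0984 to 0.134). For each subunit whose difference or correlation with Prkar2b moved without both, and for some of the other genes named, the value without them is also given, a choice made after seeing the data. Each difference subtracts the wild-type mean from the homozygous mean of log2 intensities, from limma fitted over all 29214 probe sets, and a probe set counts as called at a Benjamini-Hochberg adjusted p under 0.05.

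Prkar2b, the type II beta regulatory subunit, was the member that chose the set, and every homozygous embryo lay below every wild-type embryo. Its log2 intensity in wild type ran from 11.15 (lowest) through 11.19 (median) to 11.36 (highest), with a mean of 11.22 ± 0.0822 (SD, n = 6). In homozygous embryos it ran from 10.92 through 11.03 to 11.04, with a mean of 11.00 ± 0.0535 (SD, n = 6). Wild type 1 and 2, at 11.28 and 11.36, were the high wild-type embryos and homozygous 2 and 3, at 10.94 and 10.92, the low homozygous ones, and a gap of 0.10 separated the groups. The difference was -0.23 ± 0.038 (SE), which is 14.5% lower (95% interval 9.43% to 19.2%). In bulk tissue, fewer cells that contain a transcript and less of it per cell cannot be told apart.

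The adjusted p of Prkar2b in limma was 0.0285, and 1 of the 6 members was called, where 0.469% of all genes were called in either direction, 0.269% as lower and 0.2% as higher; since this contrast chose the set, nothing is read from that count. It placed 11th in size of 39 genes called lower. Without wild type 1 and 2, in a fit that called 582 probe sets against 124 with all arrays, the difference was -0.18 (adjusted p = 0.0122 in limma). The call was lost without wild type 1 (adjusted p = 0.0501), 4 (0.0578), 5 (0.0621) or 6 (0.0613) and without homozygous 1 (0.0606), 2 (0.0713), 3 (0.0832), 4 (0.0720) or 5 (0.0671), at differences between -0.24 and -0.20 over all 12 arrays left out. It was also lost without an intensity trend (0.0775).

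**Figure D1:**
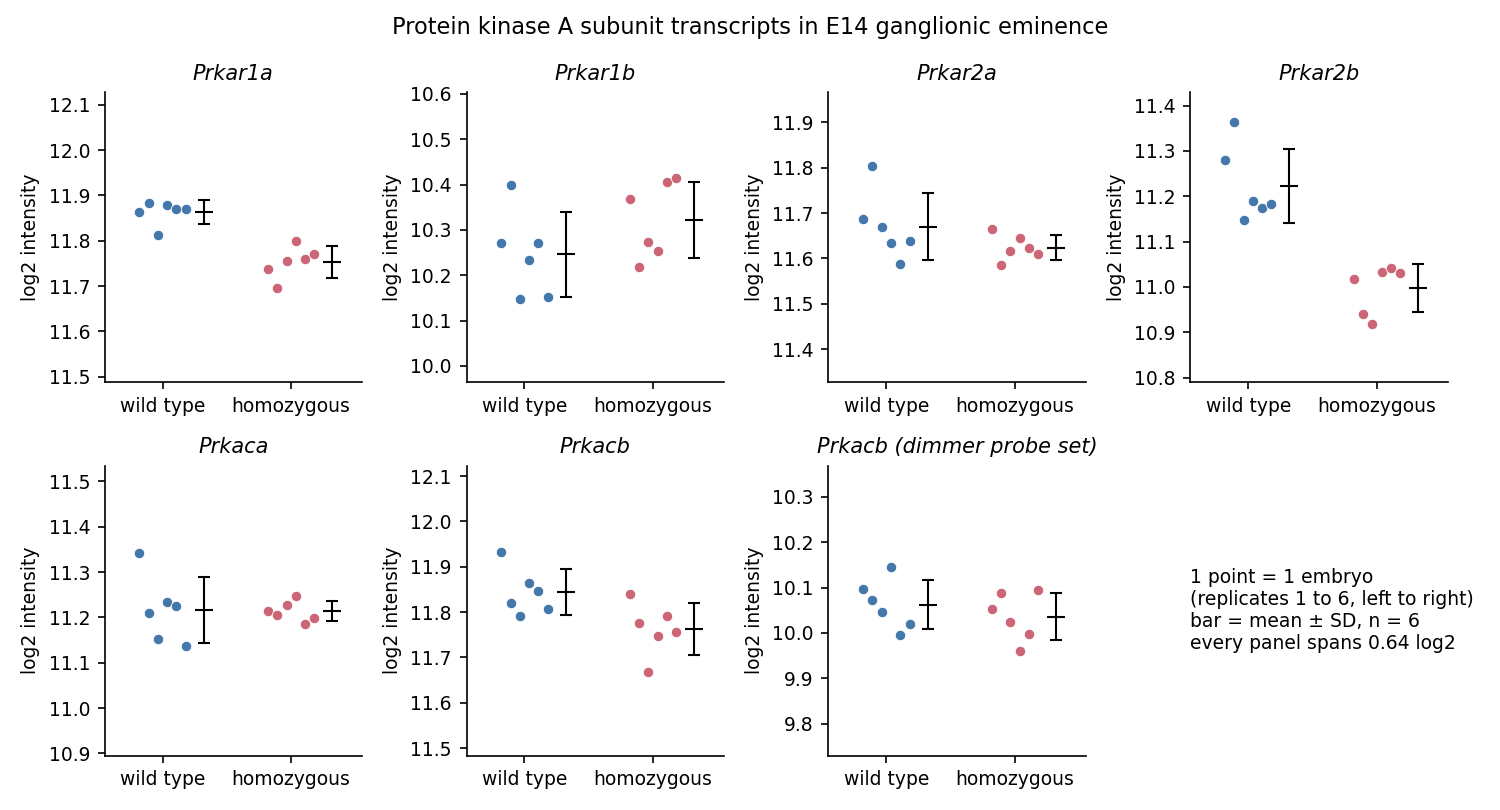
Log2 intensity of the 7 probe sets of the PKA subunit genes, 1 point per embryo, with mean ± SD beside each group of 6; the axes differ in level but all span the same range. For Prkar2b and Prkar1a every homozygous point lies below every wild-type point, and in the other panels the groups overlap.

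Prkar1a, the type Ialpha regulatory subunit and the form that most tissues contain, was the other member whose groups did not overlap. Wild-type embryos ran from 11.81 through a median of 11.87 to 11.88, and their spread was the smallest of the members in wild type (SD 0.0258, n = 6). Homozygous embryos ran from 11.70 through 11.76 to 11.80 (SD 0.0346, n = 6). The groups were separated by 0.012 only, between wild type 3 and homozygous 4. The difference was -0.11 ± 0.022, or 7.33% lower (95% interval 4.19% to 10.4%), and its adjusted p of 0.0516 in limma lay just outside the threshold that Prkar2b passed. Of the 6 members, 2 had homozygous values entirely below wild type, where 0.944% of all genes did and 2.2% were without overlap in either direction. These members include Prkar2b, whose fall chose the set, so nothing is read from that count. Prkar1a was called without wild type 3 (adjusted p = 0.0372 in limma), but in none of the 11 other fits that left out 1 array. It was also called with arrays centred on their medians (-0.15, adjusted p = 0.0144 in limma) and in 5 of the 8 settings that remain. Over all probe sets, 200 were called without wild type 3 and 302 with centred arrays, against 124 in the main fit.

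Prkar1b, the type Ibeta subunit known mostly from neurons, was the member with a higher homozygous mean. Wild-type embryos ran from 10.15 through 10.25 to 10.40 (SD 0.0934, n = 6), and homozygous embryos from 10.22 through 10.32 to 10.41 (SD 0.0844, n = 6). The groups overlapped widely: homozygous 5 and 6, both at 10.41, lay above the highest wild-type embryo, wild type 2 at 10.40, and none lay below the lowest. The difference of 0.08 ± 0.048 (95% interval -0.03 to 0.18) was smaller than the SD within either group and did not pass. It was 0.04 with arrays centred on their medians and 0.12 without wild type 1 and 2, and above 0 in every setting tried.

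Prkar2a, the type II alpha subunit found in most tissues, lay in wild-type embryos at 11.59 (lowest), 11.65 (median) and 11.80 (highest; SD 0.0741, n = 6), and in homozygous embryos at 11.58, 11.62 and 11.66 (SD 0.0276, n = 6). All homozygous values lay below the wild-type mean, and 1 lay below the lowest wild-type embryo. The difference was -0.05 ± 0.032 (95% interval -0.12 to 0.02) and did not pass. It shrank without the high wild-type embryos, being -0.0085 without wild type 1 and 2 and -0.02 without wild type 2 alone, and -0.08 with centred arrays.

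Of the catalytic subunit genes, Prkaca was nearly equal in both groups. This gene of the alpha catalytic subunit ranged in wild-type embryos from 11.14 through 11.22 to 11.34 (SD 0.0731, n = 6) and among homozygous ones from 11.19 through 11.21 to 11.25 (SD 0.0221, n = 6). All homozygous values lay inside the wild-type range, in which wild type 1 was highest. The difference was -0.0040 ± 0.032 with a 95% interval of -0.07 to 0.06, which held values of both signs. Its sign turned with array weights (0.0058), without wild type 1 (0.02), without wild type 1 and 2 (0.03) and without homozygous 5 (0.0013).

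Prkacb, the beta catalytic subunit, was read by 2 probe sets. By the brighter one, wild-type embryos ran from 11.79 through 11.83 to 11.93 (SD 0.0510, n = 6) and homozygous embryos from 11.67 through 11.77 to 11.84 (SD 0.0568, n = 6). Of the homozygous embryos 4 lay below the lowest wild-type embryo and all 6 below the wild-type mean, with a difference of -0.08 ± 0.031 that did not pass (adjusted p = 0.254 in limma). By the dimmer, homozygous embryos ran from 9.96 to 10.09 and the wild-type mean was 10.06 ± 0.0544 (SD, n = 6), with a difference of -0.03 ± 0.034. The mean of both probe sets differed by -0.05. Both pointed down, and the dimmer by less than its standard error.

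**Figure D2:**
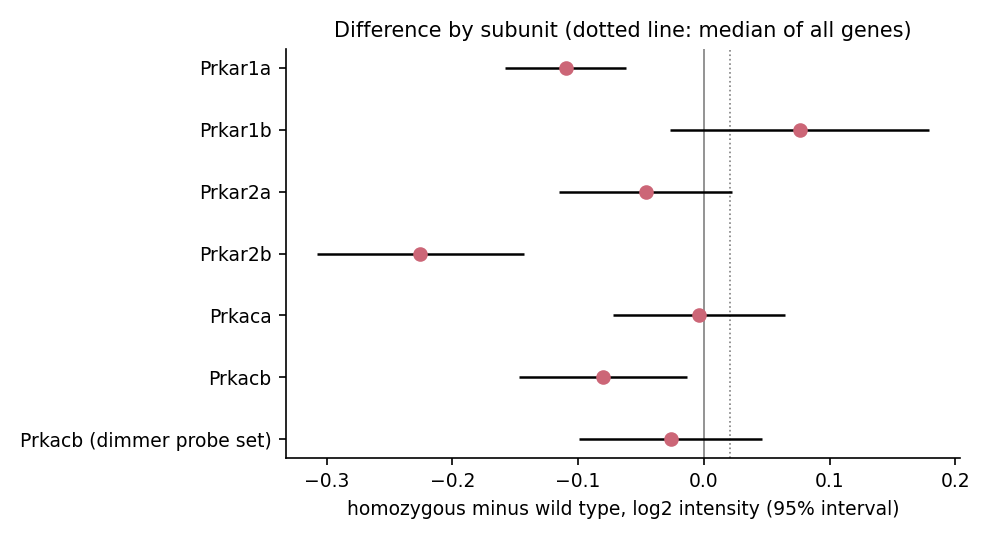
Difference between homozygous and wild-type embryos for each of the 7 probe sets on the log2 scale, with the 95% interval of the limma fit (n = 6 per group). Prkar2b stands at -0.23 and Prkar1a at -0.11, while the intervals of Prkar1b, Prkar2a, Prkaca and the dimmer Prkacb probe set include 0; the dotted line is the median of all genes, 0.02.

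In all, 5 of the 6 genes stood lower in homozygous embryos, with a median difference of -0.06, where 38.6% of all 14506 genes stood lower and their median was 0.02. The 5 include Prkar2b, whose fall chose the set, so nothing is read from that count. The share of all genes turns with the scaling, to 59.4% with arrays centred on their medians and 51.5% with quantile normalization. The spread between embryos also varied among members, with the smallest SD at 0.0258 and the largest at 0.0934 among wild-type, and at 0.0221 and 0.0844 among homozygous embryos. Prkar1b varied most in both groups.

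Setting one subunit against another on the same array removes whatever scales a whole array. The level of such a difference depends on the probes and has no meaning of its own, so only its shift between genotypes is read, and it uses the contrast that chose Prkar2b. Prkar2b minus Prkar1b ran from 0.90 through 0.98 to 1.03 across wild-type embryos (SD 0.0457, n = 6) and from 0.62 through 0.65 to 0.78 across homozygous ones (SD 0.0617, n = 6). This shift of -0.30 was the widest of the 5 pairings with Prkar2b, and the groups lay 0.13 apart.

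Against the other type II subunit the picture was the same in direction. Prkar2b minus Prkar2a averaged -0.45 ± 0.0413 among wild-type and -0.63 ± 0.0452 among homozygous embryos (SD, 6 each), a shift of -0.18. The shifts were -0.12 against Prkar1a, -0.22 against Prkaca and -0.15 against Prkacb. In none of the 5 pairings did the groups overlap, with gaps from 0.022 to 0.13. All 5 contain the Prkar2b values that chose the set, so nothing is read from that count. In the pairing with Prkacb, wild type 2 stood apart at -0.46.

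The pairings without Prkar2b that were examined overlapped. Prkar1b minus Prkar1a shifted by 0.19, from a wild-type range of -1.72 to -1.48 to a homozygous range of -1.55 to -1.35. Prkar2a minus Prkar1a shifted by 0.06 and Prkacb minus Prkaca by -0.08. The mean of the 4 regulatory genes minus the mean of the 2 catalytic genes averaged -0.28 ± 0.0714 among wild-type and -0.31 ± 0.0395 among homozygous embryos (SD, 6 each), a shift of -0.03 that is smaller than the spread between embryos.

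**Figure D3:**
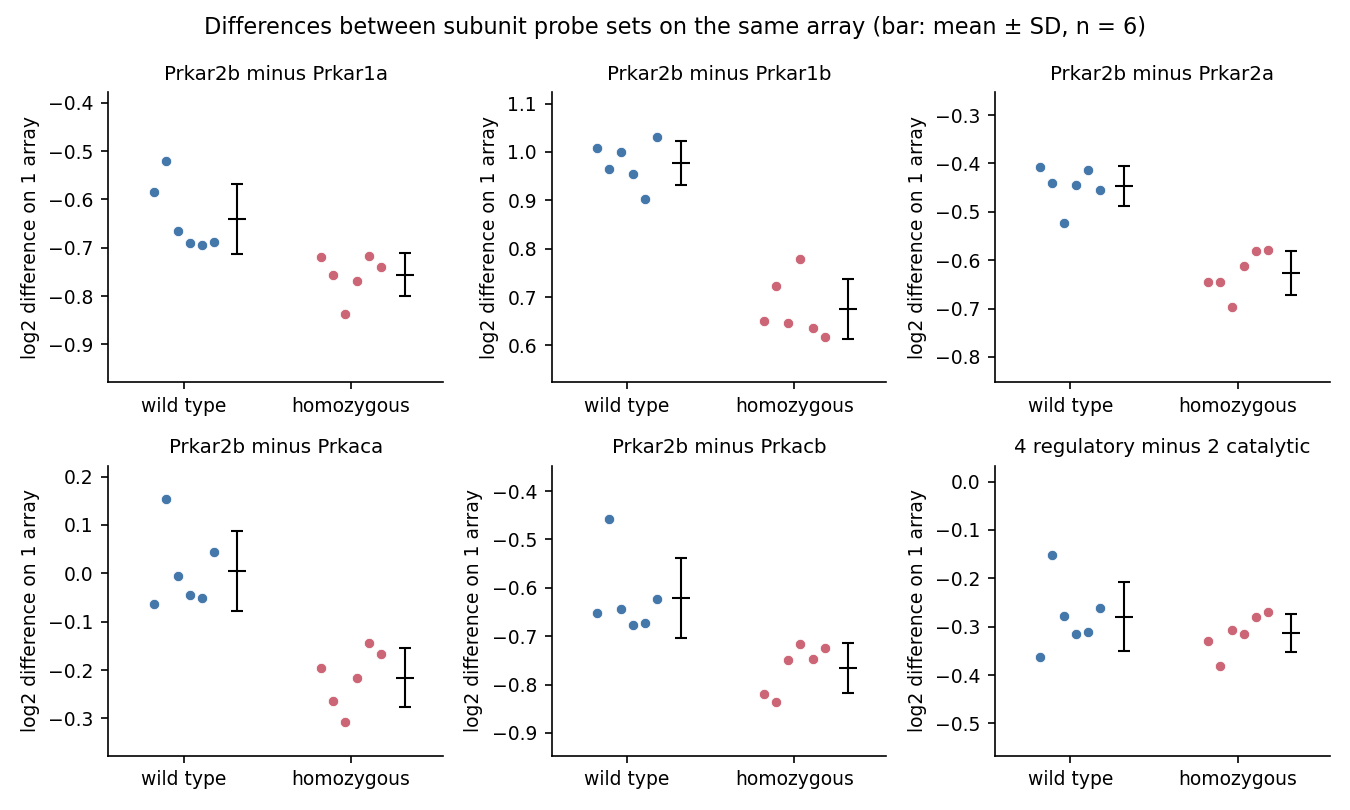
Log2 differences between subunit probe sets on the same array, 1 point per embryo, with mean ± SD beside each group of 6. All 5 pairings with Prkar2b, which contain the values that chose the set, separate the genotypes. The mean of the 4 regulatory minus the mean of the 2 catalytic subunits does not.

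How members varied between embryos of one genotype does not use the difference that chose them. Deviations from the genotype means were correlated over the 12 embryos for all 15 pairs of members, with p from 100000 permutations within genotype and Benjamini-Hochberg adjustment over the 15. Prkar2b varied most closely with Prkar1b (r = 0.79, permutation p = 0.0051, adjusted 0.0763; rho = 0.72, permutation p = 0.0152, adjusted 0.228). It varied nearly as closely with Prkar2a (r = 0.78, permutation p = 0.0113, adjusted 0.0845; rho = 0.58, permutation p = 0.0699, adjusted 0.417). With Prkar1a r was 0.51 and rho 0.55 (permutation p = 0.0864 and 0.0834, adjusted 0.324 and 0.417). None of the 15 pairs passed after adjustment by r or by rho, and 14 were above 0. With arrays centred on their medians, r with Prkar2b was 0.82 for Prkar1b, 0.83 for Prkar2a and 0.72 for Prkar1a, and these passed (permutation, adjusted p = 0.015, 0.0168 and 0.0367). With quantile normalization none of them passed, at r = 0.74, 0.65 and 0.14 (permutation, adjusted p = 0.148, 0.370 and 0.876).

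The relations with Prkar1b and Prkar2a were weaker without the extreme embryos. Wild type 2 and homozygous 3 were farthest from the middle of the Prkar2b deviations, and without both r was 0.64 with Prkar1b and 0.54 with Prkar2a, but 0.62 with Prkar1a (10 embryos). Without wild type 1 and 2 it was 0.63 with Prkar1b, 0.28 with Prkar2a and 0.60 with Prkar1a, and 0.58 with Prkacb and 0.0079 with Prkaca, so that the relation with Prkar2a rested on those embryos. Within wild type r was 0.87 with Prkar1b (exact permutation p = 0.0181, n = 6) and 0.87 with Prkar2a (exact permutation p = 0.0361, n = 6). Within homozygous embryos it was 0.68 and 0.53 (exact permutation p = 0.192 and 0.294, n = 6). These exact p within each genotype were not adjusted over the pairs. Of all genes, 4.19% had a higher r with Prkar2b than Prkar1b had and 4.68% a higher one than Prkar2a had, with a median of -0.02 over genes. The measured r of Prkar1b with Prkar2b was thus positive in both genotypes, while their measured differences between genotypes were 0.08 and -0.23. On the deposited values that r did not pass after adjustment, and the interval of the Prkar1b difference held values of both signs.

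The catalytic subunits were less close to Prkar2b, at r = 0.41 for Prkacb (rho = 0.48; permutation p = 0.196 and 0.135, adjusted 0.420 and 0.507) and r = 0.32 for Prkaca (rho = 0.22; permutation p = 0.440 and 0.517, adjusted 0.599 and 0.754). Without wild type 2 and homozygous 3, r was 0.59 and 0.66. The catalytic pair had the highest r of the 15 pairs inside wild type (0.97, exact permutation p = 0.0042, n = 6) but r was -0.42 in homozygous embryos (exact permutation p = 0.411, n = 6). These exact p were not adjusted for the choice of this pair among the 15. Over both genotypes Prkaca and Prkacb had r = 0.53 and rho = 0.34 (permutation p = 0.0728 and 0.304, adjusted 0.324 and 0.570), and r was 0.07 without wild type 1 and 6, the embryos farthest in Prkaca. Their relation thus rested on those embryos.

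**Figure D4:**
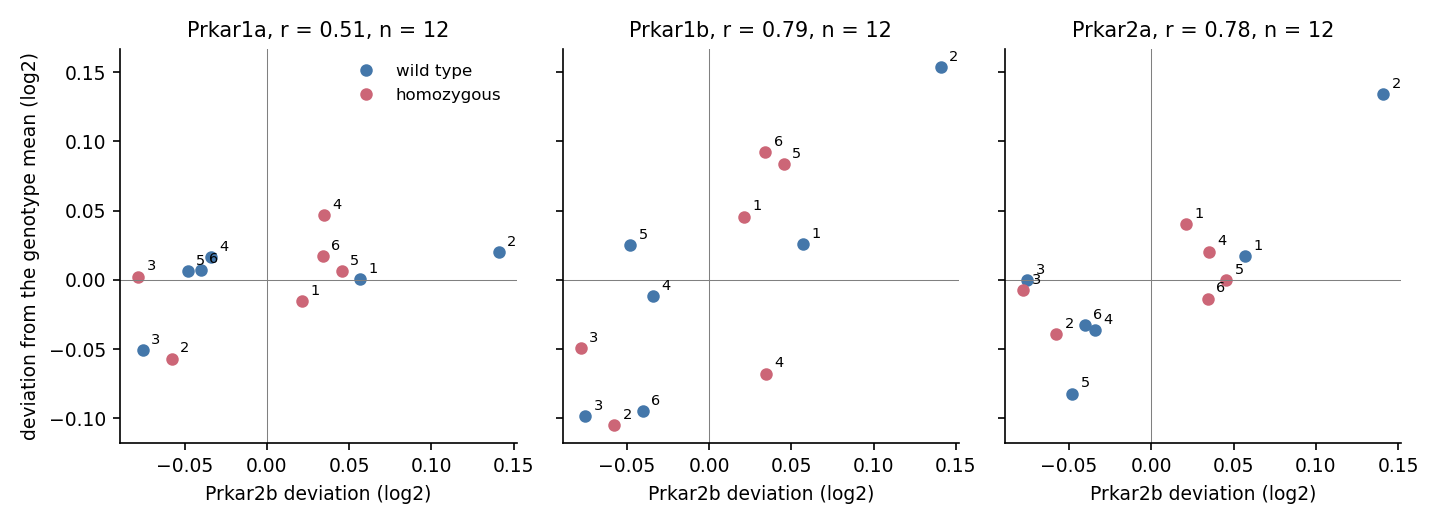
Deviations from the genotype mean of Prkar2b (x axis) against those of Prkar1a, Prkar1b and Prkar2a (y axis), log2 scale, 1 numbered point per embryo. Wild type 2 lies at the upper right for Prkar1b and Prkar2a, and r is 0.51, 0.79 and 0.78 over 12 embryos.

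The genes whose deviations were most like those of Prkar2b over the 12 embryos were Ptpro, a receptor tyrosine phosphatase (r = 0.96), Afg3l2, a mitochondrial protease subunit (0.95), Slc25a16, a mitochondrial carrier (0.95), Ythdc1, a nuclear reader of methylated RNA (0.95), and Btbd10 (0.95). These are the extremes of 14505 genes, given as a description. Without wild type 2 and homozygous 3, r of these 5 lay between 0.84 and 0.91. The most opposite were Sall2, a zinc finger transcription factor (-0.94), Pan2, of a deadenylase complex (-0.93), and the transporter gene Slc47a2 (-0.93). None of these 8 genes was called between genotypes in limma: their differences ran from -0.14 for Ythdc1 (adjusted p = 0.232) to 0.12 for Pan2 (adjusted p = 0.121), and were -0.06 and 0.08 for these without wild type 1 and 2.

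Genes beside the members on the chromosome were not called either. Next to Prkar2b, Hbp1 stood at -0.06 ± 0.035 and Gpr22 at -0.11 ± 0.091 on one side, and Nampt at -0.09 ± 0.042 and Sypl1 at -0.0093 ± 0.056 on the other, all smaller than the difference of Prkar2b. Without wild type 1 and 2, Hbp1 stood at -0.04 and Gpr22 at -0.06. The 24 nearest measured protein-coding genes of all members were taken, 2 on each side in the order of GRCr8, and none was called in limma. An unadjusted p under 0.05 was found for 4 of them, where 15.1% of all genes had one. Of these, 3 were higher and Nampt was lower.

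The pathway around PKA was described with 12 lists holding 125 measured genes of 136 listed, besides the subunits. None was called in limma (lowest adjusted p = 0.130). At an unadjusted p under 0.05 there were 17, of which 14 were higher and 3 lower, a share of 13.6% where all genes gave 15.1%. That direction turned with the scaling: centring each array on its median gave 2 higher and 16 lower, against 9 and 7 with quantile normalization, and 8 and 7 with cyclic loess. Their median difference was 0.02, and 42.4% stood lower where 38.6% of all genes did.

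Upstream of the kinase, no receptor, G protein, cyclase or phosphodiesterase gene was called, and at an unadjusted p under 0.05 there were 2 of 20, 1 of 7, 0 of 8 and 1 of 16. Of the receptors that act through cAMP, Gpr12, which raises cAMP, stood at -0.19 ± 0.084 and Ptger4, a prostaglandin receptor, at 0.15 ± 0.065, and without wild type 1 and 2 at -0.09 and 0.08. The inhibitory G protein subunits Gnai2 and Gnai1 stood at 0.04 ± 0.018 and -0.09 ± 0.057. Of the adenylyl cyclases, which make cAMP, Adcy5, the main striatal form, stood at -0.08 ± 0.050 and Adcy1 at -0.09 ± 0.061. Among the phosphodiesterases, which break cAMP down, Pde8b stood at 0.11 ± 0.040 and Pde2a at -0.10 ± 0.053. Without wild type 1 and 2 Pde2a stood at -0.03. The groups of Pde8b were separated by 0.00072 only, and 2.2% of all genes were without overlap in either direction.

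The partners that bind PKA itself were also without a call, with 5 of 21 anchoring proteins and 0 of 3 inhibitors at an unadjusted p under 0.05. Map2, the dendritic microtubule protein that anchors type II PKA, stood at 0.09 ± 0.026 (adjusted p = 0.131 in limma), and Sphkap, which anchors type I PKA, at -0.16 ± 0.061. The inhibitors Pkia and Pkig, which block the free catalytic subunit, stood at -0.02 ± 0.033 and 0.03 ± 0.067, and Pkig turned to -0.0096 with centred arrays. Pja2, a ubiquitin ligase that degrades regulatory subunits, stood at -0.01 ± 0.028, and Pdpk1, a kinase that phosphorylates the activation loop of PKA and related kinases, at 0.04 ± 0.022 (0 of 2 at an unadjusted p under 0.05). Other effectors of cyclic nucleotides had 1 of 11 at that level, with Bves at 0.14 ± 0.046 and Popdc2, both of a family of cAMP-binding membrane proteins, at 0.10 ± 0.054. Without wild type 1 and 2 these were 0.09 and 0.14.

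Downstream, 3 of 7 CREB factors and coactivators, 3 of 17 CREB target genes, 1 of 8 phosphoprotein and phosphatase genes and 0 of 5 Hedgehog factors had an unadjusted p under 0.05, with no call. Crtc2, a CREB coactivator whose entry into the nucleus cAMP promotes, stood at 0.21 ± 0.058 (adjusted p = 0.130 in limma). Its groups were separated by 0.0097 only, where 2.2% of all genes were without overlap in either direction. Crebbp, the CREB-binding acetyltransferase, stood at 0.10 ± 0.034. Of the target genes, Egr1 stood at 0.15 ± 0.056 and Junb at 0.11 ± 0.045, and the list's median was 0.02. The phosphatase 1 catalytic subunits Ppp1cb and Ppp1ca stood at -0.07 ± 0.023 and 0.06 ± 0.027. Of the Hedgehog factors, Sufu stood at 0.12 ± 0.058 and Gli1 at 0.10 ± 0.051. With arrays centred on their medians Ppp1cb was called (-0.11), and without wild type 1 and 2 Sufu was called (0.21). These settings called 302 and 582 probe sets, against 124 in the main fit.

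**Figure D5:**
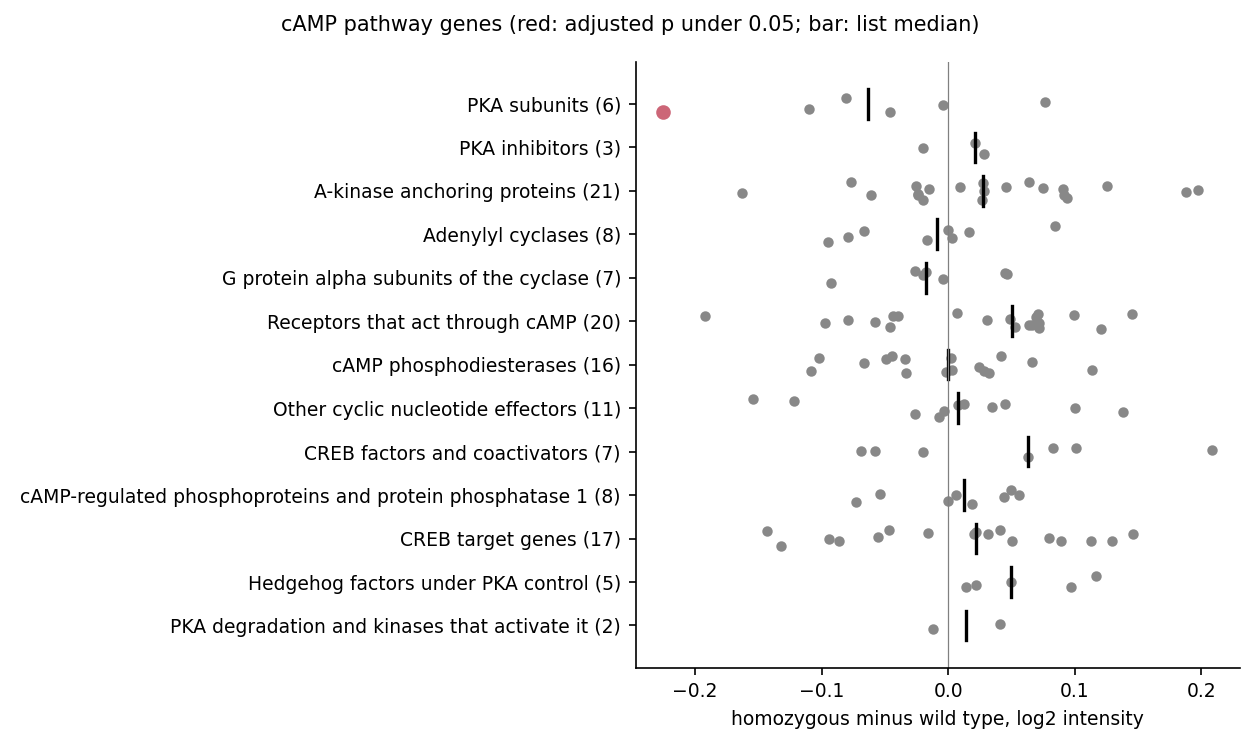
Difference between homozygous and wild-type embryos for the PKA subunits and the genes of 12 cAMP pathway lists on the log2 scale, 1 point per gene (number measured in brackets) with the list median as a bar. Prkar2b, in red at -0.23, is the one gene of these lists with an adjusted p under 0.05 in limma.

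Marker genes of 9 cell types or identities were set beside the subunits, 60 measured of 70 listed. At an unadjusted p under 0.05 there were 17, of which 5 were higher and 12 lower, a share of 28.3% where all genes gave 15.1%. None of 9 measured genes of eminence identity lay below the array medians and none was called in limma, while 2 had an unadjusted p under 0.05, Nkx2-1 of the medial eminence at 0.16 ± 0.040 and Dlx5 at -0.18 ± 0.080. Dlx5 was high in wild type 1 and 2, at 12.03 and 11.98, and its difference was -0.05 without both. Of 12 postmitotic neuron genes, Nefl fell by 0.42 ± 0.065 (adjusted p = 0.0273 in limma) and 11 did not pass, with Nefm at -0.21 ± 0.045. In this list 10 stood lower, where 38.6% of all genes did, a share that turned to 59.4% with centred arrays. Nefm was called without wild type 1 and 2 (-0.24, adjusted p = 0.0283 in limma), where 582 probe sets were called against 124 with all arrays. The mean level of that list lay between 11.52 and 11.62 among wild-type and between 11.43 and 11.59 among homozygous embryos, with a median difference of -0.03. Of 8 radial glia genes none was called and 3 had an unadjusted p under 0.05, of which 1 was higher and 2 lower. Hes5 stood at 0.15 ± 0.042 (0.10 without wild type 1 and 2) and Slc1a3 at -0.16 ± 0.049. Differences in this list ran from -0.41 to 0.15.

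Of other cell types, all 5 measured pallial genes stood lower, where 38.6% of all genes did. None of the 5 was called in limma, with Neurod6 at -0.36 ± 0.105 and Slc17a7 at -0.25 ± 0.083. Their mean level lay between 9.08 and 9.58 among wild-type embryos and reached 9.15 at most among homozygous ones, their median difference was -0.25, and 4 had an unadjusted p under 0.05. Of 7 endothelial genes Cdh5 stood at 0.15 ± 0.033 and Pecam1 at 0.08 ± 0.034, and of 6 microglial genes P2ry12 stood at -0.18 ± 0.049 and C1qa at 0.06 ± 0.039. Of 4 erythroid genes Hbb stood at -0.49 ± 0.147 and Slc4a1 at -0.16 ± 0.115 (-0.32 and -0.05 without wild type 1 and 2), and the mean level of these 4 lay between 8.77 and 9.28 among wild-type and between 8.65 and 8.96 among homozygous embryos. The meninges had been removed, per the labels. Col1a1 and Col1a2 of the 5 mesenchymal genes stood at 0.11 ± 0.063 and 0.08 ± 0.059 (0.05 and 0.02 without wild type 1 and 2), and Ttr and Kl of the 4 choroid plexus genes, all 4 below the array medians, at 0.17 ± 0.058 and 0.09 ± 0.060 (Kl at 0.03 without wild type 1 and 2). None of these other lists held a call in limma, and 2, 1, 1, 0 and 1 of their genes had an unadjusted p under 0.05. The part of any cell type in the difference of Prkar2b was not tested.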

How the data were processed

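Whole ganglionic eminence RNA of 12 embryos was hybridised as biotin-labelled cRNA, per the labels' protocols, 1 array per embryo. The authors deposited 1 log2 intensity for each probe set and embryo. Partek 6.4 and RMA stand in the submitters' processing notes without settings, and the log2 scale was read from the values. RMA usually makes arrays alike and short probes compress differences. The number of arrays, 12, limits the precision.

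The platform annotation gave 1 gene for 15310 probe sets, several for 323 and none for 13581, and 15279 of the first matched RefSeq by Entrez number. The test between genotypes used limma 3.58.1 under R 4.3.3 (moderated by eBayes along a trend in intensity; 2-sided; Benjamini-Hochberg over all probe sets at 0.05) and checked on simulated data. Named were the 6 subunits, genes called and the 2 with the smallest p in each list, and the 5 genes most and 3 least like Prkar2b. The members and lists were chosen with earlier results of these data known. Listed symbols absent from the annotation were looked for by synonym and Entrez number, so that Akap2 was read as Pakap. Those still not found were not analysed here.

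Alternatives left out dim probe sets (below the 25th percentile), added the replicate number as a block, or used median centring, quantile normalization, no trend, array weights, the mean of a gene's probe sets or all arrays but 1; cyclic loess and leaving out wild type 1 and 2 were chosen after seeing the data. Figures used matplotlib 3.10.9 in Python 3.11.15.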

Additional observations from a re-analysis of the deposited data

Results flagged for a closer look

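Of 132 groups of 6 values examined for a single embryo far from the other 5, 5 stood out, where chance gives about 1 in 20 (6.6). For Prkar1a, wild type 3 was the lowest wild-type embryo at 11.81, with the nearest at 11.86. For Prkar2b minus Prkacb on the same array, wild type 2 was the highest at -0.46, with the nearest at -0.62. In the cAMP pathway, wild type 2 was the highest for Adcy1 at 8.48 and the lowest for Crtc2 at 9.06. Among the markers, homozygous 1 was the lowest for C1qa at 7.46.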

How the results depend on the processing

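The fall of Prkar2b kept its direction in all 21 other settings, from -0.26 to -0.18, and stayed past the threshold in 10; leaving out 1 array gave -0.24 to -0.20, and the call was lost at -0.23 with a replicate block (adjusted p = 0.0854 in limma) and without an intensity trend (0.0775). Prkar1a, Prkar1b, Prkar2a and Prkacb kept their signs in all 21 settings. Prkaca turned with array weights (0.0058) and without wild type 1 and 2 (0.026), and with 1 array left out ranged from -0.020 to 0.021. The number of probe sets called moved from 124 (66 higher, 58 lower) to 18 with the replicate block, 302 (35 higher, 267 lower) with centred arrays, 3 without a trend, 414 with array weights and 582 without wild type 1 and 2, and ranged from 4 to 200 with 1 array left out; quantile normalization gave 43 higher and 77 lower. No pathway gene was called except 1 with centred arrays and 1 without wild type 1 and 2. Of the correlations with Prkar2b, that of Prkacb turned to -0.24 with the replicate block. The labels do not say whether equal replicate numbers pair the embryos. Deviations of equally numbered embryos correlated with r from -0.08 to 0.26, and 3 of 12 embryos correlated best with their own number. These values did not establish a pairing and cannot exclude one. The cause of these shifts was not tested.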
